A study of Mus musculus with 9 samples.

Results

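Cytosolic ribosomal proteins are the protein components of the ribosomes that translate most cellular mRNAs in the cytoplasm. Their mRNAs were examined here in CD11b+ cells sorted from glioma-bearing mouse brains. Members were the protein-coding genes with a symbol of the large (Rpl) or small (Rps) ribosomal subunit, together with Rplp0, Rplp1, Rplp2 and Rpsa and without the Rps6k kinases. They were selected on their measured counts, with a minimum of 10 raw counts in every library. Of 83 matching protein-coding genes among the 53801 genes counted, 79 were members, 47 of the large and 32 of the small subunit. Their detection is therefore a description and no result. Just inside the minimum were Rpl13a (152 to 292 counts), Rpl22l1 (168 to 489 counts) and Rps27l (324 to 1544 counts). Just outside it were Rpl39l (9 to 24 counts) and Rpl3l (0 to 10 counts), while Rpl10l and Rpl24 had 0 counts in every library. The annotation places another gene, Gm28037, on the same strand over 47.0% of the exon bases of Rpl24, so that its count of 0 is uncertain. Other genes, Gm45713 among them, overlap 35.4% of the exon bases of Rpl13a on its strand, and its level is uncertain in the same way.

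Male C57BL/6J mice, 10 to 12 weeks old at the start, received GL261 glioma cells carrying tdTomato and luciferase in the right striatum. CTR mice were given saline, OAT-1746 mice an oral inhibitor of both arginases at 50 mg/kg 2 times a day from the day after implantation, and anti-PD-1 mice 4 intraperitoneal injections of the antibody (day 8, 10, 12 and 14, 2.5 mg/kg each), while COMB mice received both agents. CD11b is a surface integrin of myeloid cells, and the sorted cells include resident microglia and macrophages that enter from the blood; their collection is dated to day 28 in the study's methods and to day 21 in a legend. Stranded poly-A libraries were made from 3 COMB samples and from 2 samples of each other group, with 13048075 to 18796479 read pairs counted on genes. The study's methods call the samples biological replicates without saying how many mice went into each, and the p-values measure the spread between these samples.

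The large subunit joins amino acids and the small subunit decodes the mRNA. Ribosomal protein genes are housekeeping genes, most of whose products are needed in equal numbers, and their mRNAs are known for a shared control. Their transcripts start with a C followed by an unbroken stretch of pyrimidines, the 5′ terminal oligopyrimidine (TOP) motif, through which the kinase mTOR and the RNA-binding protein Larp1 adjust their translation and stability to nutrients and growth signals.

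Start windows of 9 members on which the results turn are printed here, because this start is what the family is known to share and the symbol rule did not use it. Rps6 and Rplp2 stand for the small subunit and the stalk. Rps10 and Rps15a are among the members higher in COMB than in OAT-1746. Rpl35 is the member with the lowest values under the antibody relative to CTR, and Rpl39 and Rpl22l1 are those with the highest. Rps27 and Rps27l are a pair of paralogs. Each window holds 30 bases in the direction of the gene, 10 before the RefSeq start and 20 from it on, and capitals mark an unbroken run of C and T that begins with a C at the start and has at least 4 more pyrimidines. The windows are from GRCm38.p6, at chr4:86857348-86857377 (minus strand) for Rps6, chr7:141447641-141447670 (plus) for Rplp2, chr17:27635225-27635254 (minus) for Rps10, chr7:118116128-118116157 (minus) for Rps15a, chr2:39005112-39005141 (minus) for Rpl35, chrX:37085203-37085232 (minus) for Rpl39, chr3:28805498-28805527 (plus) for Rpl22l1, chr3:90213629-90213658 (minus) for Rps27 and chr9:66946076-66946105 (plus) for Rps27l.
Rps6: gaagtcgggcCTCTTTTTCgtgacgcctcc
Rplp2: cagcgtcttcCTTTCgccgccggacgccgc
Rps10: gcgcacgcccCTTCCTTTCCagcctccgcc
Rps15a: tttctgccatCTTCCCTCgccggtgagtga
Rpl35: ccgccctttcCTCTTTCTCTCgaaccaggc
Rpl39: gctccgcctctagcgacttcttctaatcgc
Rpl22l1: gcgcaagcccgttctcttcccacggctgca
Rps27: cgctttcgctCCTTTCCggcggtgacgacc
Rps27l: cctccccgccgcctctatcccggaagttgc

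RefSeq starts were given for 59 members. Such a run began at a start of 13 of them (22.03%), against 2.71% of protein-coding genes and 3.01% of all genes with a start. These were 7 of 35 large and 6 of 24 small subunit members with a start. It was 0 of 69 for mitochondrial ribosomal proteins, which are made in the cytoplasm and belong to another ribosome. Rpl39, Rpl22l1 and Rps27l, whose windows hold no capitals, had no run at the annotated start, which says only that these letters are not at that position. The motif CTTCCG, or CGGAAG on the other strand, to which ETS factors such as GABP can bind, was found between 250 bases before and 50 bases after the start in 67.8% of the members with a start and 56.5% of the mitochondrial ribosomal proteins, against 24.2% of protein-coding genes and 18.8% of all genes. The median log2 fold change in OAT-1746 against CTR was -0.77 both for the 13 members with a run at the start and for the 46 without it. In the same order the medians were 0.95 and 0.81 in COMB against OAT-1746 and 0.14 and 0.04 in COMB against CTR. They were -0.06 and -0.13 in anti-PD-1 against CTR, 0.21 and 0.19 in COMB against anti-PD-1, and 0.92 and 0.94 in the interaction defined below. These differences were not tested. The 46 were classed by the annotated start alone, and some, such as Rpl7a, have a stretch of pyrimidines that spans this position. The medians therefore do not compare TOP mRNAs with mRNAs that lack the motif.

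A single library stood apart before any gene group was considered. Log2 levels of OAT-1746 replicate 2 correlated with those of the other libraries across genes at r = 0.917 to 0.964, and the other 28 pairs of libraries at 0.966 to 0.993. For the members, the edgeR counts and the medians of the comparisons with OAT-1746 are therefore also given without this library. The DESeq2 fits, the medians by start or overlap, the scaling to the members and the other gene lists were not repeated without it. No pair of libraries was alike within sampling noise.

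The members took 5.35% and 4.88% of all counts in the CTR libraries and 3.62% and 2.80% in the OAT-1746 libraries. The share was 5.09% and 4.37% in anti-PD-1 and 4.78%, 6.03% and 5.24% in COMB. Both OAT-1746 libraries thus lay below the other 7, whose ranges overlapped between the other 3 groups. Means were 5.12 ± 0.332% in CTR, 3.21 ± 0.580% in OAT-1746 and 4.73 ± 0.504% in anti-PD-1 (SD, n = 2 each), and 5.35 ± 0.631% in COMB (SD, n = 3). In bulk RNA, fewer cells with many ribosomes and less ribosomal protein mRNA per cell cannot be told apart. Pseudogenes and non-coding genes with related symbols, to which reads of the members could be assigned, numbered 303, and their summed counts came to between 0.216% and 0.352% of the summed member counts in a library, in which they are not included. An exon of another gene lay on the same strand over 26 members, and the median log2 fold change in OAT-1746 against CTR was -0.72 for these and -0.78 for the other 53.

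The balance of the subunits varied little. The log2 ratio of large to small subunit counts was 0.28 and 0.27 in CTR, 0.31 and 0.30 in OAT-1746, 0.22 and 0.25 in anti-PD-1 and 0.23, 0.17 and 0.22 in COMB. The CTR, OAT-1746 and antibody-treated libraries did not overlap in this ratio, with OAT-1746 highest, and the lowest and highest of the 9 values were 0.17 and 0.31. The ratio was not tested.

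**Figure D1:**
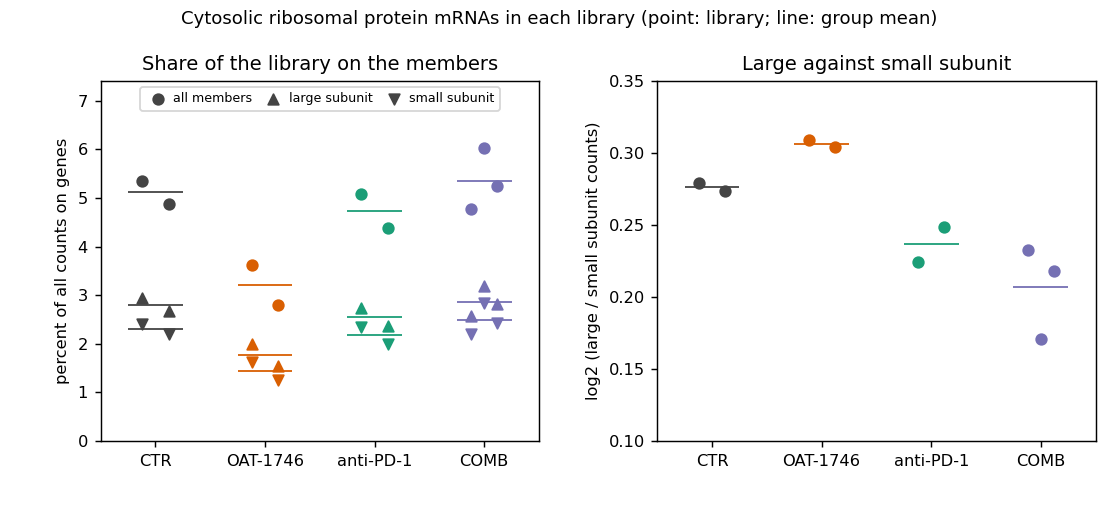
Members as a percent of all counts on genes (left; circles for all members, triangles for the subunits) and the log2 ratio of large to small subunit counts (right) in each library; lines are group means. The OAT-1746 libraries, at 3.62% and 2.80%, lie below the other 7 libraries, and the ratio stays between 0.17 and 0.31.

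The first comparison asked what the arginase inhibitor alone did to these mRNAs. In OAT-1746 against CTR the 79 members were all lower, and the 2 groups did not overlap for any of them, an order found for 32.1% of the 12538 genes tested. For 76 members the OAT-1746 libraries were also the lowest 2 of all 9 (16.6% of all genes), and Rpl23a and Rpl35 were among the exceptions. The median log2 fold change was -0.77, a level 41.2% lower, with -0.76 for the large and -0.77 for the small subunit genes, against 0.01 over all genes tested. The quartiles of the members were -0.83 and -0.69, 0.14 apart, whereas those of all genes were 0.89 apart. Some gene lists described below were similarly narrow, with quartiles 0.08 apart for microglia markers and 0.20 for other TOP mRNAs. Others were wider, with 0.37 for mitochondrial ribosomal proteins and 0.39 for ribosome biogenesis factors. At a Benjamini-Hochberg adjusted p under 0.05, edgeR called 0 members, as it called 0% of all genes, and the lowest adjusted p of a member was 0.0620. Before adjustment, at an unadjusted p under 0.05, it found 77 members lower (16.2% of all genes), and DESeq2 called 71 lower (7.37% of all genes).

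The size of this difference depended on OAT-1746 replicate 2. The median of the members relative to CTR was -0.55 in replicate 1 and -0.97 in replicate 2, and each member was lower in both. Without replicate 2 the median was -0.53 (-0.53 for the large and -0.57 for the small subunit), with 0 members and 0 of all genes called by edgeR and 55 members at an unadjusted p under 0.05, as were 1859 of 12538 genes in all. Without replicate 1 it was -0.97, and edgeR called 72 members and 3647 of 12538 genes in all, with the lone library assumed to vary like the other groups. Without a filter on low counts edgeR called 10 members and 587 of 16075 genes in all. The direction was the same for all 79 members under every scaling tried other than that to the members themselves, and after a correction for exon length and GC content the median was -0.56.

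The ribosomal stalk, formed by Rplp0 with Rplp1 and Rplp2, recruits the elongation factors to the large subunit. Rplp0 had 2211 and 2075 CPM (counts scaled to the library size) in CTR, 1419 and 893 in OAT-1746, 1888 and 1826 in anti-PD-1 and 1778, 2417 and 2146 in COMB. Rplp1 had 1601 and 1432 CPM in CTR, 1126 and 899 in OAT-1746, 1341 and 1279.9 in anti-PD-1 and 1376, 1917 and 1625 in COMB. Both were lowest in the OAT-1746 libraries and highest in COMB replicate 2, and Rplp2 had the same order, with 617 and 472 CPM in OAT-1746 against 1022 and 811 in CTR. Their log2 fold changes in OAT-1746 against CTR were -0.89, -0.58 and -0.75 for Rplp0, Rplp1 and Rplp2 (standard errors 0.24, 0.21 and 0.24), and -0.58, -0.41 and -0.55 without OAT-1746 replicate 2. The edgeR adjusted p was 0.0715, 0.09995 and 0.0825, and DESeq2 gave 0.0107, 0.0438 and 0.0271. Per kb of exon, Rplp1 was the most abundant member, at a mean of 2805 CPM per kb over the libraries, and Rps15 (1157), Rplp0 (1115) and Rpl36 (931) were also among the highest. The lowest levels per kb were those of Rpl13a (6.07, uncertain for the overlap given above), Rpl22l1 (11.2) and Rpl7l1 (28.6).

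Among small subunit proteins, Rpsa also acts as a laminin receptor, and Rps6 is the substrate of the S6 kinases downstream of mTOR. Rpsa had 1408 and 1362 CPM in CTR, 988 and 528 in OAT-1746, 1259 and 1200.05 in anti-PD-1 and 1050.2, 1436 and 1283 in COMB. The gap between its 2 OAT-1746 libraries made its log2 fold change of -0.87 (standard error 0.28, edgeR adjusted p = 0.0870) range from -0.47 without OAT-1746 replicate 2 to -1.39 without replicate 1. Rps6 had 442 and 405 CPM in CTR, 302 and 196 in OAT-1746, 401 and 388 in anti-PD-1 and 374, 492 and 430.5 in COMB. Its log2 fold change in OAT-1746 was -0.77 (standard error 0.23, edgeR adjusted p = 0.0746, DESeq2 adjusted p = 0.0220), and in anti-PD-1 and COMB it was -0.10 and 0.03. Rps3, which also takes part in DNA repair, and Rps14, which lies at the decoding platform, both differed by -0.71 in OAT-1746 against CTR. Rps19, which is mutated in Diamond-Blackfan anemia, had a log2 difference of -1.002 in OAT-1746 against CTR, and Rps27a, made as a fusion with ubiquitin, of -0.79. Among the largest differences in this subunit were those of Rps27l (-1.10) and Rps2 (-1.09), and the smallest were those of Rps4x (-0.54), Rps21 (-0.61) and Rps29 (-0.61). Without OAT-1746 replicate 2, Rps6 differed by -0.47, Rps3 by -0.44, Rps19 by -0.67, Rps27l by -0.63 and Rps2 by -0.74. None of these passed the edgeR threshold in that comparison with all libraries, and DESeq2 called those named here except Rps29 (adjusted p = 0.0515).

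Among large subunit proteins, Rpl3 lies close to the peptidyl transferase center, and Rpl5 and Rpl11 bind Mdm2 when ribosome assembly is disturbed. Rpl3 had 891 and 775 CPM in CTR, 566 and 489 in OAT-1746, 730.5 and 682 in anti-PD-1 and 737, 959 and 848 in COMB. Rpl5 and Rpl11 were also lowest in the 2 OAT-1746 libraries, with log2 fold changes of -0.66 and -0.76. Rpl10, which completes the maturation of the large subunit, differed by -0.66. Rpl13a can leave the ribosome to repress translation of inflammatory mRNAs in myeloid cells. It had 14.9 and 12.1 CPM in CTR and 10.5 and 8.70 in OAT-1746, levels that are uncertain for its overlap with other genes. Its log2 fold change was -0.49 (standard error 0.24, edgeR adjusted p = 0.184), and it and Rpl7l1 were the only members above an unadjusted p of 0.05. The largest differences in the large subunit were those of Rpl32 (-1.04), Rpl19 (-0.93) and Rpl39 (-0.93), and among the smallest were those of Rpl7l1 (-0.33) and Rpl21 (-0.44). Rpl32 had 1022 and 814 CPM in CTR and 510.3 and 384 in OAT-1746, and its difference was -0.83 without OAT-1746 replicate 2. Without that library Rpl3, Rpl5 and Rpl11 differed by -0.54, -0.45 and -0.56, and Rpl7l1 and Rpl21 by -0.24 and -0.28.

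**Figure D2:**
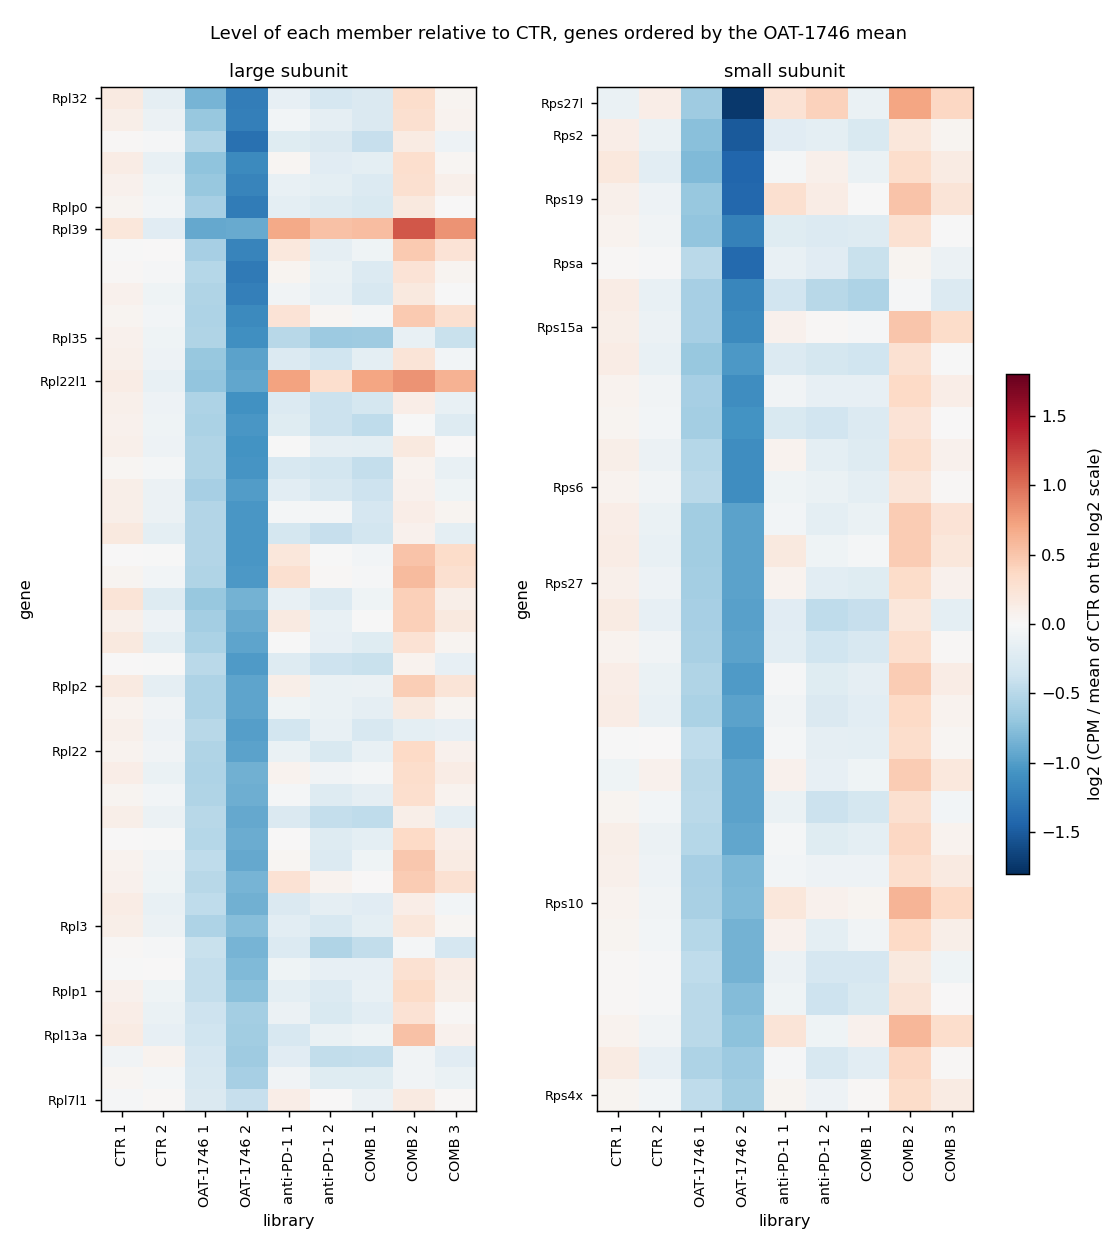
Log2 of the CPM of each member relative to the mean log2 CPM of the CTR libraries, for large (left) and small (right) subunit genes in the 9 libraries; genes are ordered by their OAT-1746 mean, and some are labelled. Both OAT-1746 columns are below 0 for all 79 members and replicate 2 has the lower median (-0.97 against -0.55), while Rpl39 and Rpl22l1 are above 0 in the 5 antibody-treated libraries.

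The antibody alone was compared with CTR next. The members had a median log2 fold change of -0.12 (0.02 over all genes), with 63 lower and 16 higher. edgeR called 0 members, as it called 0% of all genes. At an unadjusted p under 0.05 it found 2 higher (3.18% of all genes) and 1 lower (1.94%), and DESeq2 called 0 (0.112% of all genes in either direction). The 2 higher members were Rpl39 and Rpl22l1, and the lower one was Rpl35, whose start carries a run of 11 pyrimidines as printed above. The count of 3 at an unadjusted p under 0.05 was 0 without CTR replicate 2, 1 without anti-PD-1 replicate 1 and 6 without OAT-1746 replicate 2, of which 2 were higher and 4 lower. Over all 12538 genes the counts of these fits were 480, 331 and 956. After the length and GC correction it was 16 members, of which 15 were lower, and 721 genes in all, with a median of the members of -0.24. The median lay between -0.22 and -0.05 when single libraries were left out.

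COMB against CTR, which compares both agents with neither, gave a median of 0.06, with 55 members higher and 24 lower. The sign of this median turned to -0.08 after the length and GC correction, to -0.07 without COMB replicate 2 and to -0.03 without CTR replicate 2, so that no direction can be given for the family. With that correction 2 members were higher and 6 lower at an unadjusted p under 0.05 (956 of 12538 genes in all). edgeR called 0 members (0% of all genes), found 2 higher (3.21% of all genes) and 0 lower (3.37%) at an unadjusted p under 0.05, and DESeq2 called 1, Rpl39 (0.279% of all genes in either direction).

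Rpl39 and Rpl22l1 had the highest log2 fold changes of the members in both antibody-treated groups against CTR, although 2 members of 79 at an unadjusted p under 0.05 are no larger a share than among all genes. Rpl39, a short protein that lines the exit tunnel of the large subunit, had 175 and 133 CPM in CTR, 80.3 and 81.1 in OAT-1746, 244 and 220.004 in anti-PD-1 and 224, 330.2 and 265 in COMB. Every antibody-treated library lay above both CTR libraries, and both OAT-1746 libraries lay below them. Its log2 fold change was 0.60 in anti-PD-1 (standard error 0.21, edgeR adjusted p = 0.951) and 0.83 in COMB (standard error 0.20, edgeR adjusted p = 0.673, DESeq2 adjusted p = 0.0376). Rpl22l1 had 20.1 and 16.8 CPM in CTR, 11.2 and 9.61 in OAT-1746, 30.2 and 22.7 in anti-PD-1 and 30.04, 32.3 and 28.2 in COMB, the same order of groups without overlap between CTR and the antibody-treated libraries. Its log2 fold change was 0.52 in anti-PD-1 (standard error 0.19, edgeR adjusted p = 0.951) and 0.71 in COMB (standard error 0.18, edgeR adjusted p = 0.673, DESeq2 adjusted p = 0.131). With single libraries left out, the value in anti-PD-1 ranged from 0.41 to 0.81 for Rpl39 and from 0.26 to 0.70 for Rpl22l1. Neither gene was called by edgeR against CTR. At the other end were Rpl35, Rps26 and Rpl23a, with log2 fold changes of -0.58, -0.42 and -0.39 in anti-PD-1 and -0.38, -0.27 and -0.25 in COMB. With single libraries left out, these ranged in anti-PD-1 from -0.69 to -0.50, from -0.56 to -0.27 and from -0.58 to -0.27, and in COMB from -0.52 to -0.29, from -0.40 to -0.12 and from -0.37 to -0.18. Rpl35 had 437 and 393 CPM in CTR, 293 and 264 in anti-PD-1 and 266, 377 and 314 in COMB, and its OAT-1746 libraries had 284 and 192. Its antibody-treated libraries were all below CTR, and those of anti-PD-1 and COMB overlapped with OAT-1746 replicate 1.

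Giving the antibody with OAT-1746, in COMB against OAT-1746, was the only comparison in which edgeR called members. All 79 were higher in COMB, and 76 of them, without Rpl23a and Rpl35 among others, had every COMB library above both OAT-1746 libraries (25.03% of all genes). edgeR called 58 members higher, 32 of the large and 26 of the small subunit, where it called 6.84% of all genes higher and 15.8% in either direction. At an unadjusted p under 0.05 it found 75 higher (18.3% of all genes), and DESeq2 called 74 (13.2%). The median log2 fold change was 0.82, against 0.00 over all genes.

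These calls rested on few libraries. The count of 58 became 1 without OAT-1746 replicate 2, when the median was 0.60 and 58 members (2429 genes in all) had an unadjusted p under 0.05, and 1 without COMB replicate 2 or 0 without COMB replicate 3. Fewer members and fewer of all genes were called without either CTR or either anti-PD-1 replicate, with medians of the members of 0.82 and 0.81. The comparison does not name these libraries, but they enter the shared estimate of the spread and the scaling. The count of members called was 67 without COMB replicate 1, and without OAT-1746 replicate 1 their median was 1.05. The calls over all 12538 genes moved with them, to 27 without OAT-1746 replicate 2, 14 and 1 without COMB replicates 2 and 3, and 2918 and 4058 without COMB replicate 1 and OAT-1746 replicate 1. After the length and GC correction 25 members and 1596 genes in all were called, the median was 0.44 and 5 of the 79 members were lower. All 79 members were higher without each of these libraries.

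Rpl39 (log2 fold change 1.76, standard error 0.21) and Rpl22l1 (1.53, standard error 0.18) were the members with the lowest p, both at an edgeR adjusted p of 0.00849, and rose to 3.39 and 2.89 times their OAT-1746 levels. Rpl39 was the member still called without OAT-1746 replicate 2 and without COMB replicate 2, and was lost without COMB replicate 3. Rps10, which is ubiquitinated when ribosomes collide, rose by 1.04 (standard error 0.19, edgeR adjusted p = 0.0211), from 307 and 265 CPM in OAT-1746 to 475, 697 and 587 in COMB. Rps15a rose by 1.14 and Rps19 by 1.26, and Rps27a and Rps20 by 1.01 and 1.00. Of the large subunit, Rpl37a rose by 0.97 and Rpl32 by 1.08. Each of these 7 genes had all COMB libraries above both OAT-1746 libraries, with COMB replicate 2 highest. Their edgeR adjusted p lay between 0.0211 and 0.0265.

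**Figure D3:**
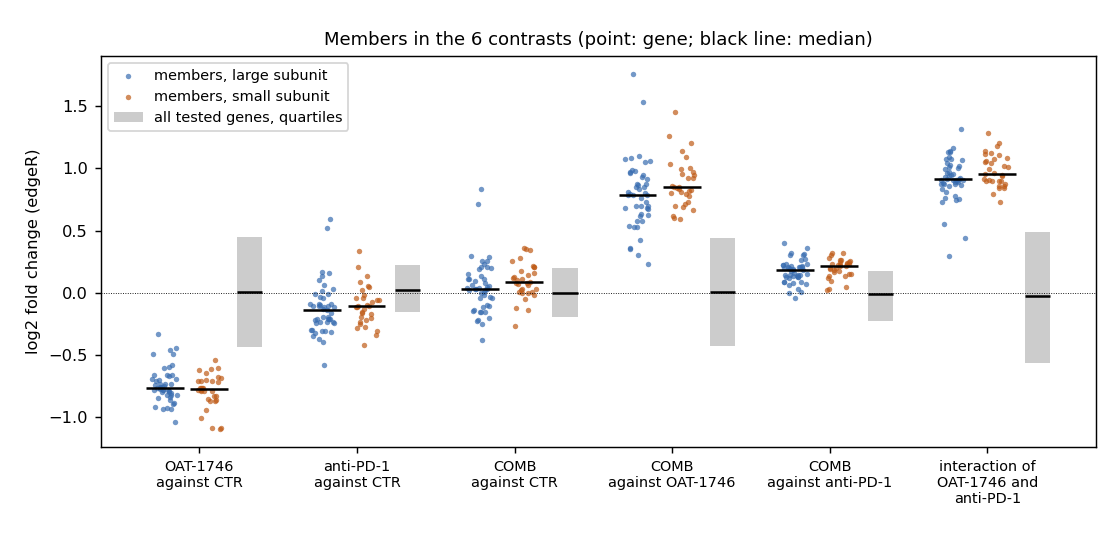
Log2 fold changes of the 79 members in the 6 comparisons (points, with a black line at the median of each subunit) beside the quartiles of all 12538 genes tested (grey). The members form a narrow band with medians of -0.77 in OAT-1746 against CTR and 0.82 in COMB against OAT-1746, and Rpl39 and Rpl22l1 are the highest points of the 3 comparisons with the antibody against CTR or OAT-1746.

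COMB against anti-PD-1 asked what OAT-1746 added once the antibody was given. Of the 79 members 78 were higher, all but Rpl7l1, with a median of 0.19 (-0.01 over all genes). edgeR called 0 members (0% of all genes), found 0 higher at an unadjusted p under 0.05 (1.98% of all genes), and DESeq2 called 0 (0.375% in either direction). Without COMB replicate 1 the count at an unadjusted p under 0.05 was 4, and 1287 of all 12538 genes. Without COMB replicate 2 the median was only 0.07, with 16 members lower, and without anti-PD-1 replicate 1 it was 0.31. The interaction, in which the difference made by OAT-1746 without antibody is subtracted from that made with it, had a median of 0.93, and was above 0 for all 79 members. Of these, edgeR called 0, where it called 0.359% of all genes, and the lowest adjusted p was 0.0850, that of Rpl12. At an unadjusted p under 0.05 it found 76 higher (11.8% of all genes), with Rpl21 and Rpl7l1 among the exceptions, and DESeq2 called 52 (3.61%). Without OAT-1746 replicate 2 the median was 0.75, with 0 members called and 69 at an unadjusted p under 0.05 (2172 genes in all), and without replicate 1 it was 1.18, with 71 called of 2756 genes in all. Without COMB replicate 1 edgeR called 3 (419 genes in all), and without CTR replicate 1 the count at an unadjusted p under 0.05 was 47 (2260 genes in all). These comparisons share the COMB and OAT-1746 libraries with those above and are not independent of them.

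Scaling each library to the summed member counts shows which members moved against the rest of the family. In OAT-1746 against CTR, edgeR then called 0 members and found 0 at an unadjusted p under 0.05, with differences between -0.40 and 0.43, while it called 5272 of all 12538 genes and found 6758 at that p. In COMB against OAT-1746 it called 7 members (52.9% of all genes, most of which differ on this scale by construction). Among them, Rpl39 (0.93), Rpl22l1 (0.74), Rps27l (0.69) and Rps19 (0.48) were higher, and Rpl21 (-0.48) and Rpl23a (-0.44) were lower relative to the family. With the median of ratios over the members as the scale, edgeR called 6, without Rps19. Against CTR the relative difference of Rpl39 was 0.74 in anti-PD-1 and 0.79 in COMB, that of Rpl22l1 0.66 and 0.69, and that of Rpl35 -0.44 and -0.42. These 3 had an unadjusted p under 0.05 in both comparisons and none was called by edgeR. On this scale 427 and 415 of all 12538 genes had such a p in anti-PD-1 and COMB.

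Several ribosomal proteins have a paralog, and some of these paralogs can take the place of their partner in the ribosome. Whether any did so here was not tested. A ratio of counts within a library does not depend on scaling. Rpl22l1 is the paralog of Rpl22, an RNA-binding protein that represses it. Counts of Rpl22l1 were 5.59% and 5.09% of those of Rpl22 in CTR, 4.72% and 5.44% in OAT-1746, 9.55% and 7.92% in anti-PD-1 and 9.61%, 7.29% and 7.76% in COMB. All 5 antibody-treated libraries lay above the 4 libraries without antibody, and CTR and OAT-1746 overlapped. Rpl22 itself differed from CTR by -0.19 in anti-PD-1 and by 0.11 in COMB. Rps27l, a target of p53, had 7.69% and 10.4% of the counts of Rps27 in CTR, 8.78% and 5.23% in OAT-1746, 10.3% and 13.7% in anti-PD-1 and 9.56%, 11.7% and 11.1% in COMB, with CTR overlapping every other group and OAT-1746 below both antibody-treated groups. Rpl7l1 had 10.997% and 11.2% of the counts of Rpl7 in CTR, 12.5% and 14.5% in OAT-1746, 12.8% and 12.4% in anti-PD-1 and 11.4%, 10.3% and 10.3% in COMB. Its share was highest in OAT-1746 replicate 2, where Rpl7 was at its lowest. Rps4l, which the annotation does not class as protein-coding and which is thus no member, had 1.33% and 1.74% of the counts of Rps4x in CTR, 2.48% and 3.35% in OAT-1746, 1.68% and 1.41% in anti-PD-1 and 1.58%, 1.18% and 1.37% in COMB, highest in both OAT-1746 libraries. The remaining paralogs were near the floor, with 9 to 24 counts for Rpl39l against 1379 to 5004 for Rpl39, 2 to 11 for Rpl36al, 0 to 10 for Rpl3l and 0 for Rpl10l. Reads shared by near-identical copies could have been removed by the mapping quality filter, and these ratios are uncertain to that extent. No ratio was tested.

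**Figure D4:**
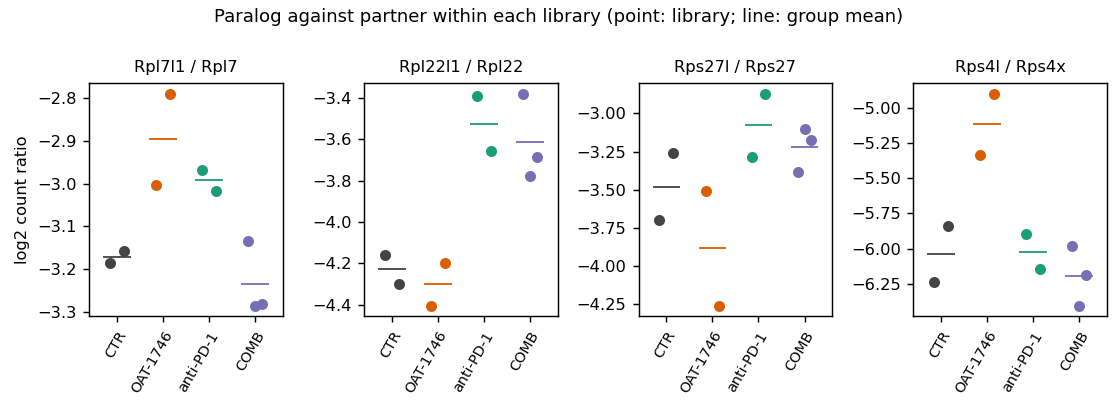
Log2 ratio of the counts of a paralog to those of its partner in each library (points) with group means (lines), for Rpl7l1, Rpl22l1, Rps27l and Rps4l. Rpl22l1 is higher relative to Rpl22 in the 5 antibody-treated libraries than in the other 4, and Rps4l relative to Rps4x in both OAT-1746 libraries.

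Cytosolic ribosomal proteins outside the symbol rule include Fau, Rack1 and Rpl36al, the last of which had too few counts to test. Rack1, a scaffold on the small subunit, had 1608 and 1516 CPM in CTR, 991 and 638 in OAT-1746, 1381 and 1371 in anti-PD-1 and 1281, 1877 and 1604 in COMB. Fau (-0.66, standard error 0.22) and Rack1 (-0.94, standard error 0.25) were lower with OAT-1746 than in CTR. Both had an unadjusted p under 0.05 and were called by DESeq2 but not by edgeR.

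Other mRNAs known from the literature to start with TOP were lower together with the members. The run at a RefSeq start was found in 3 of the 11 that have one, and not in Eef1a1. All 17 tested were lower with OAT-1746 than in CTR, with a median of -0.66, each at an unadjusted p under 0.05 (16.2% of all genes), and DESeq2 called 11 (7.37% of all genes). Eef1a1, the elongation factor that brings aminoacyl-tRNA to the ribosome and the most abundant of them, had 12405 and 11695 CPM in CTR, 8441 and 6773 in OAT-1746, 8694 and 8881 in anti-PD-1 and 9049.7, 11467 and 10695 in COMB. The largest differences were those of Eef1g (-1.01) and Hnrnpa1 (-0.91), and the smallest those of Eef1d (-0.43) and Eif4b (-0.46). In anti-PD-1 16 of the 17 were lower than in CTR, with a median of -0.33 against -0.12 for the members. There edgeR called 0, found 4 lower at an unadjusted p under 0.05 (1.94% of all genes), and DESeq2 called 0 (0.112% in either direction). In COMB against CTR the median of the list was -0.12.

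Mitochondrial ribosomal proteins, which serve translation of the mitochondrial genome, had a median of -0.68 in OAT-1746 against CTR, and 75 of 77 were lower. At an unadjusted p under 0.05 edgeR found 59 lower (16.2% of all genes), and DESeq2 called 28 (7.37%). Their summed level was 2102 and 2087 CPM in CTR, 1567 and 1169 in OAT-1746, 2081 and 1991 in anti-PD-1 and 1819, 2576 and 2246 in COMB, so that the OAT-1746 libraries were again the lowest. Mrpl11 (-1.13) and Mrpl1 (-1.07) had the largest differences, and Mrpl10 (0.09) and Mrpl46 (0.05) were the 2 that were higher. Mrpl53 had 0 counts in every library. Ribosome biogenesis factors, which process rRNA and assemble the subunits, had a median of -0.43, with 43 of 48 lower. Of these, 23 had an unadjusted p under 0.05 (16.2% of all genes) and DESeq2 called 14 (7.37%). Nhp2 (-1.20) and Mrto4 (-0.93) had the largest differences, and Taf1d (0.44) and Nop2 (0.30) were highest. Regulators of ribosomal protein synthesis, among them mTOR complex genes, S6 kinases and Myc, did not share a direction, with a median of -0.04 over 21 genes. At an unadjusted p under 0.05, 5 were higher and 4 lower, with Rptor (0.85) and Myc (0.67) highest and Eif4ebp1 (-0.88) and Deptor (-0.52) lowest. Over all 12538 genes, 2013 were higher and 2036 lower at that p. Larp1 differed by -0.32 (standard error 0.27). edgeR called 0 genes of these lists in OAT-1746 against CTR. Of the last 4 lists, in COMB against OAT-1746, it called 37 mitochondrial ribosomal proteins, 6 TOP mRNAs and 7 biogenesis factors, all higher, and 2 regulators higher and 4 lower, where it called 6.84% of all genes higher and 15.8% in either direction.

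Exon length also went with the differences. The members are short, with a median exon length of 1830 bases against 4521.5 bases over all genes tested. Genes that are no members had, with OAT-1746 against CTR, a median log2 fold change of -0.56 at up to 1000 bases (232 genes), -0.35 at 1000 to 2000 bases (1249 genes) and 0.15 in the longest class (5521 genes). In COMB against OAT-1746 the medians were 0.66 at up to 1000 bases and -0.19 in the longest class. Other short transcripts thus differed in the same direction as the members, and whether this comes from RNA quality or from the cells was not tested. Mitochondrially encoded genes held 1.32% and 1.10% of all counts in CTR, 2.46% and 2.26% in OAT-1746, 0.779% and 1.43% in anti-PD-1 and 1.61%, 0.810% and 0.931% in COMB.

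Markers of the cells that a CD11b sort collects differed between the same groups. All 10 microglia markers were higher with OAT-1746 than in CTR, with a median of 0.93. Each had an unadjusted p under 0.05 (2013 of all 12538 genes were higher at it), and DESeq2 called 8 (1048 of all genes higher). Their summed level was 14001 and 22014 CPM in CTR, 29219 and 36756 in OAT-1746, 20652 and 16714 in anti-PD-1 and 25452, 19112 and 17971 in COMB. P2ry12, a purine receptor of resident microglia, had the largest difference (1.16). All 10 markers of monocytes and macrophages were lower with OAT-1746 than in CTR, with a median of -1.06. Of these, 5 had an unadjusted p under 0.05 (16.2% of all genes were lower at it) and DESeq2 called 3 (7.37%). Their summed level was 13474 and 12405 CPM in CTR, 9244 and 1829 in OAT-1746, 12287 and 14554 in anti-PD-1 and 9857, 12332 and 12753 in COMB. OAT-1746 replicate 2 thus had far fewer counts from these genes than replicate 1. Tgfbi, the most abundant of them, had 5703 and 4298 CPM in CTR and 2621 and 366 in OAT-1746. Ms4a7 (-2.05) had the largest difference and Ly6c2 (-0.04) the smallest. Proliferation markers were lower as well, with a median of -1.49 over 10 genes. Of these, 9 had an unadjusted p under 0.05 (16.2% of all genes) and DESeq2 called 8 (7.37%). Their summed level was 317 and 307 CPM in CTR, 197 and 109 in OAT-1746, 222 and 266 in anti-PD-1 and 237, 274 and 258 in COMB. All 10 were also lower than CTR in anti-PD-1 (median -0.71, 1 at that p, against 1.94% of all genes) and in COMB (-0.46, 0 at that p, against 3.37%), with 0 called by edgeR or DESeq2. Pcna was the most abundant of these, and Birc5 (-2.35) and Rrm2 (-2.096) had the largest differences. In COMB against OAT-1746 these lists differed the other way. All 10 microglia markers were lower, with a median of -0.70, 9 at an unadjusted p under 0.05, 2 called by edgeR and 5 by DESeq2. Among all 12538 genes 2353 were lower at that p, with 1121 called lower by edgeR and 1411 by DESeq2. All 10 proliferation markers were higher, with a median of 0.93, 8 at that p, 1 called by edgeR and 7 by DESeq2. Of the monocyte and macrophage markers 9 were higher, with a median of 0.63, 3 at that p, 0 called by edgeR and 3 by DESeq2. Higher at that p were 18.3% of all genes, with 6.84% called higher by edgeR and 13.2% by DESeq2. A shift from infiltrating and dividing cells to microglia would lower the mRNAs of ribosomal proteins if microglia held fewer of them, and its part in the result was not tested.

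The other marker lists had fewer genes at an unadjusted p under 0.05. Their counts stand against 2013 of all 12538 genes higher and 2036 lower at that p in OAT-1746 against CTR. DESeq2 called 1048 of all genes higher and 924 lower there. In OAT-1746 against CTR the median was 0.44 for 6 genes of border-associated macrophages (2 higher and 1 lower at an unadjusted p under 0.05; DESeq2 called 1 of each), with F13a1 the most abundant. It was 0.75 for 8 neutrophil genes (7 higher, 3 of them at that p; DESeq2 called 1), led by Csf3r, and -0.39 for 6 dendritic cell genes (2 lower; DESeq2 called 0), led by Ccr7. For 5 tested T cell genes it was 0.15 with 0 at that p and 0 by DESeq2, and their list summed to 16.1 CPM at most, with Cd4 the most abundant. Cd3d, Cd3e and Cd3g had 0 counts in CTR replicate 2. For 3 tested B cell genes it was -0.44 (1 higher; DESeq2 called 0), led by Ighm, and for 5 tested genes of glioma cells 0.19 (1 lower; DESeq2 called 0), led by Nes at no more than 8.50 CPM. For 8 NK cell genes, led by Gzma, it was -0.01 with 0 at that p and 0 by DESeq2. In anti-PD-1 against CTR the NK genes had a median of 2.32, with 7 at an unadjusted p under 0.05 and 3 called by DESeq2, and summed to 36.4 and 35.2 CPM in CTR and 214 and 109 in anti-PD-1, while edgeR called 0. There 3.18% of all genes were higher at that p, and DESeq2 called 0.112% in either direction. In COMB against CTR the median of the NK genes was 1.35, with all 8 higher, 4 at that p (3.21% of all genes) and 0 called by edgeR or DESeq2. These genes summed to 47.1, 96.5 and 103.6 CPM in COMB replicates 1, 2 and 3. edgeR called 0 genes of any marker list in OAT-1746 against CTR. Nuclear-retained RNAs, which were not tested, summed to 122 and 75.7 CPM in CTR, 461 and 408 in OAT-1746, 642 and 167 in anti-PD-1 and 766, 1069.6 and 734 in COMB, of which Malat1 made up most. In this sum every CTR library was lower than every library of a treated group.

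**Figure D5:**
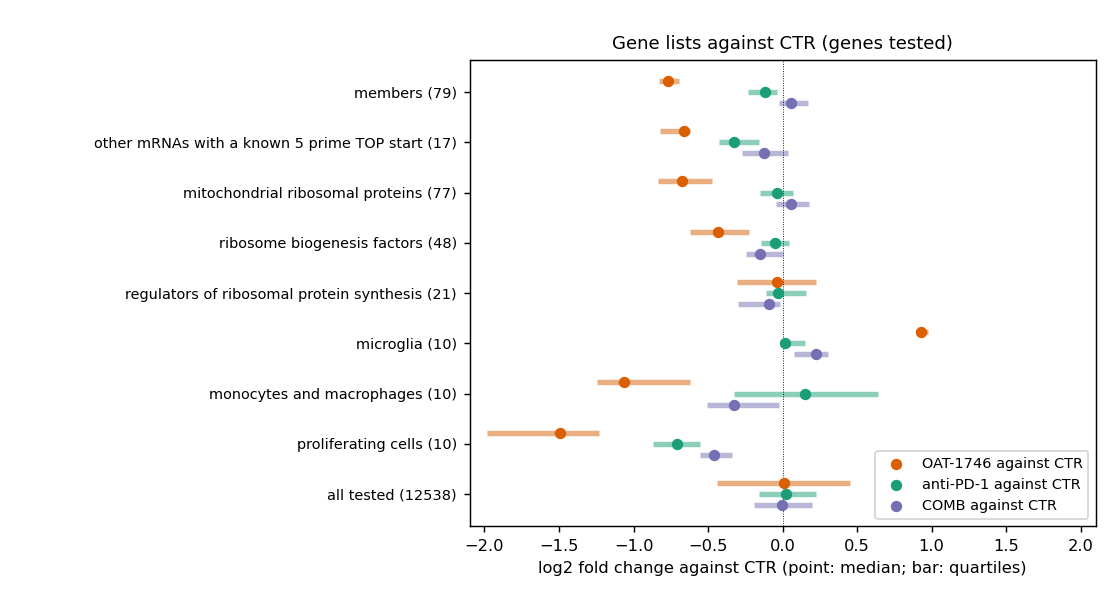
Median (points) and quartiles (bars) of the log2 fold change against CTR for the members, other gene lists and all genes tested, with the number of genes in brackets. In OAT-1746 against CTR the cytosolic and mitochondrial ribosomal proteins and other TOP mRNAs have medians of -0.77, -0.68 and -0.66, and the microglia markers one of 0.93.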

How the data were processed

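RNA from CD11b+ cells of 9 samples was sequenced. The authors trimmed reads with Trimmomatic 0.36, aligned them with STAR 2.6.1b to mm10, marked duplicates with Picard 2.17.1 (their removal is not stated) and deposited raw counts per gene from HTSeq-count 0.11.1 (reverse stranded, mapping quality of at least 10). Samples were grouped by title; for replicate 2 of anti-PD-1 the label of the treatment reads "anti-PD-2". Gene classes, exon lengths and overlaps came from GENCODE M21, which matched 53620 of 53801 gene IDs, with 21890 protein-coding.

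Group means were compared in R 4.3.3 with edgeR 4.0.16 (quasi-likelihood, TMM scaling) in the 12538 protein-coding genes that passed the expression filter, in 6 comparisons, with p adjusted over all of these genes. DESeq2 1.42.0 was the alternative. CPM use the TMM library sizes. The code was tested on simulated data. Alternatives were other scalings, filters and gene sets, robust estimation, a length and GC correction, a replicate block and leaving out each library. Member rule and gene lists were chosen with earlier results of these data known.

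Genes are named by role, as paralog pairs, as the 5 highest per kb, as the 3 largest and 3 smallest differences per subunit in OAT-1746 against CTR, as the 3 largest rises and falls in anti-PD-1 and COMB against CTR, as members just inside or outside the minimum, and as up to 10 called genes by p. In other lists they are the 2 highest and 2 lowest in OAT-1746 against CTR and the most abundant. Some genes that these rules pick are not reported here.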

Additional observations from a re-analysis of the deposited data

How the results depend on the processing

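All 79 members kept their direction in OAT-1746 against CTR and in the interaction under every alternative that does not scale to the members themselves. Of the values compared for the family as a whole, 40 moved beyond the limit set and 334 stayed the same. The limit was 0.21 for a median and a ratio of 1.5 for a count. In OAT-1746 against CTR, DESeq2 called 71 members and the fit with no filter 10. Leaving out 1 library gave 0 to 72 calls and medians of -0.97 to -0.53. In anti-PD-1 against CTR the count at an unadjusted p under 0.05 was 16 with the length and GC correction, and 0 to 6 with 1 library left out, and the median was -0.24 and -0.22 to -0.05. In COMB against CTR, DESeq2 called 1 and the correction gave 8 at an unadjusted p under 0.05, 2 higher and 6 lower (956 of 12538 genes in all). In COMB against OAT-1746 the correction gave 25 calls and a median of 0.44, and leaving out 1 library 0 to 73 calls and medians of 0.60 to 1.05. In COMB against anti-PD-1 leaving out 1 library gave 0 to 4 members at an unadjusted p under 0.05 and medians of 0.07 to 0.31. In the interaction DESeq2 called 52, the correction gave a median of 0.68, and leaving out 1 library gave 0 to 71 calls, 47 to 78 members at an unadjusted p under 0.05 and medians of 0.75 to 1.18. Without the 5 most abundant members the mean share was 2.74% in OAT-1746 and 4.36% in CTR, and with the antibody 4.05% (anti-PD-1) and 4.56% (COMB). Scaling by library size only moved the median of all genes in the interaction to -0.109, and that of the members was then 0.84. The cause was not tested.

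Deviations from the group mean correlated at r = -0.42 to 0.09 between samples of different groups with the same replicate number. In a group of 2 the deviations mirror each other, so that these values cannot decide whether the numbers pair the samples. With the number as a block, the members at an unadjusted p under 0.05 were 1 in anti-PD-1 against CTR (263 of 12538 genes in all) and 42 in the interaction (1560 genes in all), and those called in COMB against OAT-1746 were 0 (2 genes in all). With block and length and GC correction, 40 had an unadjusted p under 0.05 in OAT-1746 against CTR (2814 genes in all), 30 in COMB against OAT-1746 (2324 genes in all; 0 members called, median 0.44) and 29 in the interaction (1563 genes in all; median 0.70). The cause was not tested.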
